A study of Mus musculus with 12 samples.

Results

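Cytotoxic lymphocytes carry genes for a small set of killing molecules, and 7 of them, Gzma, Gzmb, Gzmc, Gzmk, Prf1, Fasl and Nkg7, are described here in mouse T helper 1 (Th1) cells. They were taken by gene symbol from the deposited expression table, which held all 7 among its 18929 gene rows. The compared groups were 3 libraries labelled Sdhc cKO and 3 control libraries of WT genotype, all from Th1 cells of the C57BL/6 strain after 5 days in Th1 culture conditions. Sdhc encodes a subunit of succinate dehydrogenase, which is complex II of the respiratory chain, and cKO stands for a conditional knockout whose Cre driver is not named in the labels. RNA came from sorted cells, with the gates not given in the sources used here. Samples with Slc25a1 or Slc25a11 knocked out, and their EV samples, belong to the same series and were not analysed here.

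Separate routes of killing run through these genes. Granule killing depends on perforin, which opens the membrane of the target cell, and on granzymes, serine proteases that enter through it and cleave substrates inside. Death receptor killing depends on Fas ligand, a surface protein that engages Fas and starts the caspase cascade. CD8 T cells and NK cells are the main users of both routes, and Th1 cells can carry a part of the same equipment.

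Gzmb, Prf1, Fasl and Nkg7 carried the main patterns described below. The first 3 varied together across libraries, though they were not sharply set apart from the other members. Nkg7 was the gene whose groups did not overlap, lower in cKO, as were 5.64% of all tested genes. The promoters of these genes are therefore shown, each 250 bases before to 50 after the gene's start, 5′ to 3′, as given by RefSeq on GRCm38.p6. They lie at chr14:56262285-56262584 (minus strand), chr10:61297586-61297885 (plus strand), chr1:161788446-161788745 (minus strand) and chr7:43436888-43437187 (plus strand). Capitals mark matches, on either strand, to the letters TGTGGT (RUNX), TGANTCA (AP-1), TGACGT (the core of a CRE), GGTGTGA (T-box), GGAAA (NFAT) and TTCNNNGAA (STAT).
Gzmb: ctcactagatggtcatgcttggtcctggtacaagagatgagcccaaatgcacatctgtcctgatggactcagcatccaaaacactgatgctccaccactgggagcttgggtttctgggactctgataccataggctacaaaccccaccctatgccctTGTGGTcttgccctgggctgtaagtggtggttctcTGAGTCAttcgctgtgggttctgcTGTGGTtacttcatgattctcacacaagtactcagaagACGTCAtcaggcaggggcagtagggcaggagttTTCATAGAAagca
Prf1: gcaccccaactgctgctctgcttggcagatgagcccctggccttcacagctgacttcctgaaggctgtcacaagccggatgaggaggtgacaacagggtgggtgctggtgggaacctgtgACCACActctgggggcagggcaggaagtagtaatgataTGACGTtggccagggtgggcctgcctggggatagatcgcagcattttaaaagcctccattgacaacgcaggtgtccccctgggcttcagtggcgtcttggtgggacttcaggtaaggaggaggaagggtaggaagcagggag
Fasl: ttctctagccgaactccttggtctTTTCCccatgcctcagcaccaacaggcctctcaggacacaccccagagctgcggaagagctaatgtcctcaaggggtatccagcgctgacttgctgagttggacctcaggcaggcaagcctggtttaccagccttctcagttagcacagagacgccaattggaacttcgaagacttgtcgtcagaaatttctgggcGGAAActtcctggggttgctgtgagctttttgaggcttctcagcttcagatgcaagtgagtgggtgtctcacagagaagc
Nkg7: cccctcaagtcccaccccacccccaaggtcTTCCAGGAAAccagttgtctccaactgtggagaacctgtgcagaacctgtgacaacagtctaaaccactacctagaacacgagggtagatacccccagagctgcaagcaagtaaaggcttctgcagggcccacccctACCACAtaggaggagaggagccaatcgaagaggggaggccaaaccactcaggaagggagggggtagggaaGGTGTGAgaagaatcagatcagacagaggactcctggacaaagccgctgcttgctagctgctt

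The Gzmb window held 2 RUNX matches, 1 AP-1 match, 1 CRE core and 1 STAT match, and the Prf1 window held 1 RUNX match and 1 CRE core. The Fasl window held none of these and 2 NFAT matches. The Nkg7 window held 1 RUNX, 1 T-box, 1 STAT and 1 NFAT match, the last overlapping the STAT match. Of all 32851 promoter windows of this length, 16.8% held the RUNX letters, 7.81% AP-1, 7.51% the CRE core, 3.98% T-box, 61.3% NFAT and 8.3% STAT. The 3 genes that varied together thus shared no searched motif in these windows. Gzmb and Prf1 shared the RUNX and CRE core letters, but the Gzmc window held both as well. RUNX letters were also in the Gzma and Nkg7 windows. These matches describe the letters and are not binding sites.

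The values used are normalised counts, that is, reads per gene divided by 1 size factor per library. The libraries held 18144933 to 21983821 counted reads. Markers of CD4 T cells were high in every library, with 10681, 11045 and 10988 normalised counts of Cd4 in cKO libraries against 10113, 10463 and 10944 in controls. Sdhc itself had 1452, 1562 and 1655 normalised counts in cKO libraries against 1683, 1602 and 1892 in controls (log2 fold change -0.15, SE 0.09, limma adjusted p = 0.978). Gene counts do not resolve exons, so this does not check the labels. The libraries differed in sex-linked transcripts. Y-linked genes took 0.207, 193 and 189 RPM in cKO 1, 2 and 3 against 0.048, 131 and 55.1 RPM in controls 1, 2 and 3. Normalised counts of Xist, which the inactive X transcribes, were 7565, 0 and 2.15 in cKO libraries against 9780, 2490.5 and 6406 in controls, so controls 2 and 3 held both kinds of transcript. On the first principal component (49.1% of the variance) cKO 1 and control 1 lay on one side and the other 4 libraries on the opposite side. The origin of the replicates, from separate mice or from 1 culture, is not in the labels, and the p-values therefore cover the spread between libraries alone. In bulk RNA, fewer cells that carry a transcript and less of it per cell cannot be told apart.

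None of the 7 genes passed the test between the groups. Over all genes, limma on log2(normalised count + 1) called 0 of 12699 tested genes at an adjusted p under 0.05, a background of 0%. At an unadjusted p under 0.05 it found 445 (3.5%), among them 1 of the 7, Nkg7. On the same genes edgeR called 0 and DESeq2 2, neither of them among the 7. A Y-linked covariate raised the share of tested genes called to 6.5%, and the replicate number as a block gave 0.00787%, again with 0 of the 7 called. All 7 were measured well above the filter, with at least 111 normalised counts in every library. All 7 had a negative log2 fold change in the main fit, where 54.1% of tested genes did. However, Fasl was positive with upper-quartile scaling (0.02), DESeq2 (0.12) and edgeR (0.13), and Gzmb with edgeR (0.01). With the Y-linked covariate Gzmb (0.24), Prf1 (0.23) and Fasl (0.38) were positive. Leaving out single libraries turned each of the 7 except Gzma and Nkg7 positive in some case. The median of the 7 in the main fit was -0.11, beside -0.01 over all tested genes.

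Perforin and granzyme B, the core pair of granule killing, had nearly equal means in the groups and a wide spread within them. Gzmb (chromosome 14, 56258838 to 56262260, minus strand, GRCm38) had 17092, 6804 and 9913 normalised counts in cKO libraries against 12040, 8810 and 13305 in controls. The highest and the lowest of the 6 values were both from cKO libraries, cKO 1 and cKO 2, so the groups overlapped across the whole control range. The means were 11270 ± 5276 in cKO and 11385 ± 2318 in control (SD, n = 3 each). On the log2 scale the difference was -0.10 with an SE of 0.31 and a 95% interval of -0.82 to 0.63 (limma adjusted p = 0.988). Prf1 (chromosome 10, 61297833 to 61304680, plus strand) had 338.5, 156 and 174 normalised counts in cKO libraries against 265, 182 and 236.5 in controls. It was again highest in cKO 1 and lowest in cKO 2, and its log2 fold change was -0.10 (SE 0.29, 95% interval -0.78 to 0.58, limma adjusted p = 0.988). The intervals thus allow a difference of about the same size in either direction for both genes. Both values turned on single libraries: without cKO 1 the log2 fold changes were -0.45 for Gzmb and -0.45 for Prf1, and without cKO 2 they were 0.21 and 0.11. Array weights gave -0.32 and -0.29 and the Y-linked covariate 0.24 and 0.23, and none of these was called.

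Fas ligand showed the same layout. Fasl (chromosome 1, 161780689 to 161788495, minus strand) had 479, 203 and 192 normalised counts in cKO libraries against 321, 228 and 260 in controls. cKO 1 was above every control, and cKO 2 and cKO 3 were below every control. The means were 291 ± 163 in cKO and 269.8 ± 47.3 in control (SD, n = 3 each), and the log2 fold change was -0.01 (SE 0.34, 95% interval -0.79 to 0.77, limma adjusted p = 0.9996). With the Y-linked covariate it was 0.38 (limma adjusted p = 0.0906), with array weights -0.25 and without cKO 1 -0.43.

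The other granzymes were far less abundant than Gzmb. Gzma, a tryptase that is also a staple of NK cells and CD8 T cells (chromosome 13, 113093825 to 113100981, minus strand), had 179, 111 and 197 normalised counts in cKO libraries against 236, 178 and 344 in controls. The groups overlapped, since cKO 1 at 178.8 and cKO 3 at 196.9 both lay above the lowest control, control 2, at 178.4. Gzma had the largest fold change of the 7 genes, with means of 162 ± 45.2 in cKO and 253 ± 84.2 in control (SD, n = 3 each). The log2 fold change was -0.63 (SE 0.29, 95% interval -1.29 to 0.04) and did not pass (limma adjusted p = 0.978, 2-sided exact permutation p = 0.3).

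Gzmk and Gzmc completed the measured granzymes above the filter among the 7. Gzmk, another tryptase, next to Gzma on chromosome 13 (113171608 to 113225908, minus strand), had 196, 132 and 154 normalised counts in cKO libraries against 302, 156 and 145 in controls. Control 1 stood high and the remaining 5 libraries lay between 132 and 196 (log2 fold change -0.26, SE 0.29, limma adjusted p = 0.978). The span of Gzmk contains Esm1 on the opposite strand, with 148, 107 and 77.5 normalised counts in cKO libraries against 178, 134 and 124 in controls, and the strand setting of the counting is not given in the sources used here. Gzmc, a granzyme of the same chromosome 14 cluster as Gzmb (56231441 to 56234656, minus strand), had 169, 187 and 162.5 normalised counts in cKO libraries against 169.5, 163 and 232 in controls. Its values lay close together except for control 3 (log2 fold change -0.11, SE 0.16, limma adjusted p = 0.982).

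Nkg7, a membrane protein of cytotoxic granules needed for efficient degranulation, was the gene of the 7 whose groups separated. Nkg7 lies on the plus strand of chromosome 7 (43437073 to 43438249) and had 2581, 1914 and 2158 normalised counts in cKO libraries against 2656, 2623 and 2684 in controls. Every cKO library lay below every control, though cKO 1 only just, as 5.64% of all tested genes did. The means were 2218 ± 337 in cKO and 2654 ± 30.6 in control (SD, n = 3 each), which put cKO at 83.6% of control. The log2 fold change was -0.27 (SE 0.11, 95% interval -0.52 to -0.02), with a 2-sided exact permutation p of 0.1, the smallest that 3 against 3 libraries allow. It did not pass over all genes (limma adjusted p = 0.978), also with the replicate number as a block (limma adjusted p = 0.301).

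**Figure D1:**
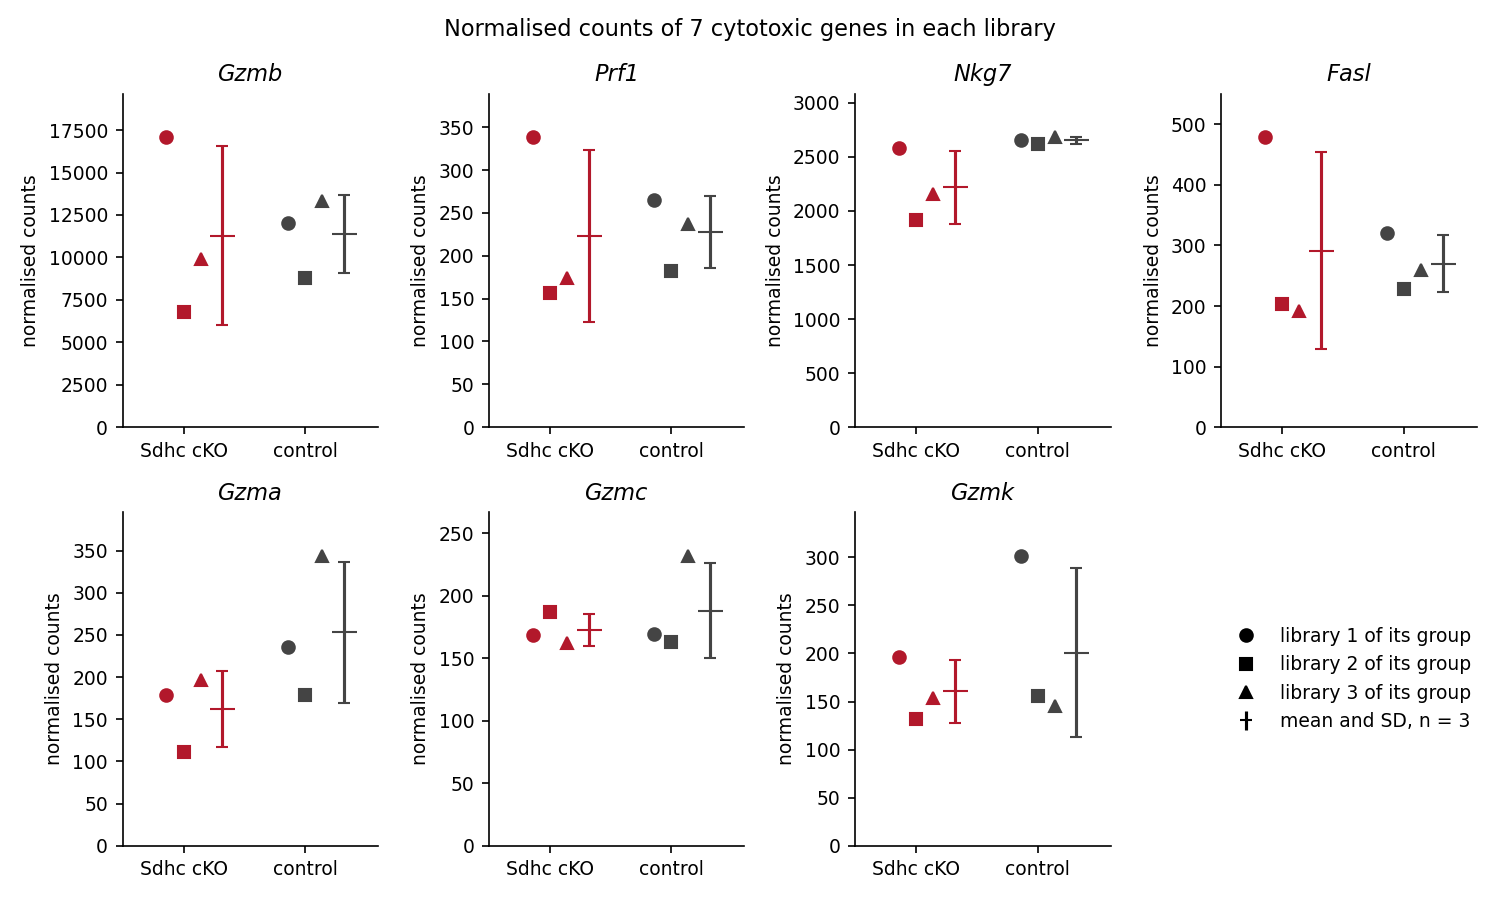
Normalised counts (y axis, from 0) of each gene in the Sdhc cKO libraries (red) and the control libraries (grey), with marker shapes for library numbers and bars for mean and SD (n = 3 each). Gzmb, Prf1 and Fasl peak in cKO 1, while all 3 cKO values of Nkg7, at 1914 to 2581, lie below the controls at 2623 to 2684.

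Same-numbered libraries, which the labels do not describe as pairs, separated the genes into those that differed one way and those that did not. Gzma and Nkg7 had the lower value in cKO within each of the 3 pairs, as did 21.8% of tested genes. For Gzma the log2 differences of the pairs were -0.40, -0.68 and -0.80, and for Nkg7 they were -0.04, -0.45 and -0.31. Gzmb, Prf1 and Fasl were higher in cKO 1 than in control 1, by 0.51, 0.35 and 0.57 on the log2 scale. The same 3 genes were lower in the other pairs, with differences of -0.37 and -0.42 for Gzmb, -0.22 and -0.44 for Prf1 and -0.17 and -0.44 for Fasl. Gzmk and Gzmc went both ways as well. cKO 1 and control 1 are the libraries with almost no Y-linked reads. Without both of them the log2 fold changes were -0.40 (SE 0.20) for Gzmb, -0.33 (SE 0.16) for Prf1, -0.30 (SE 0.13) for Fasl, -0.38 (SE 0.07) for Nkg7 and -0.74 (SE 0.33) for Gzma, and none passed (limma adjusted p = 0.384 to 0.705, background 0.00812% called). Among the libraries left, Xist was at 0 and 2.15 normalised counts in cKO 2 and 3 against 2490.5 and 6406 in controls 2 and 3. Sex-linked transcripts and genotype can therefore not be told apart in these values. The difference between the pair numbered 1 and the other pairs was not tested.

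**Figure D2:**
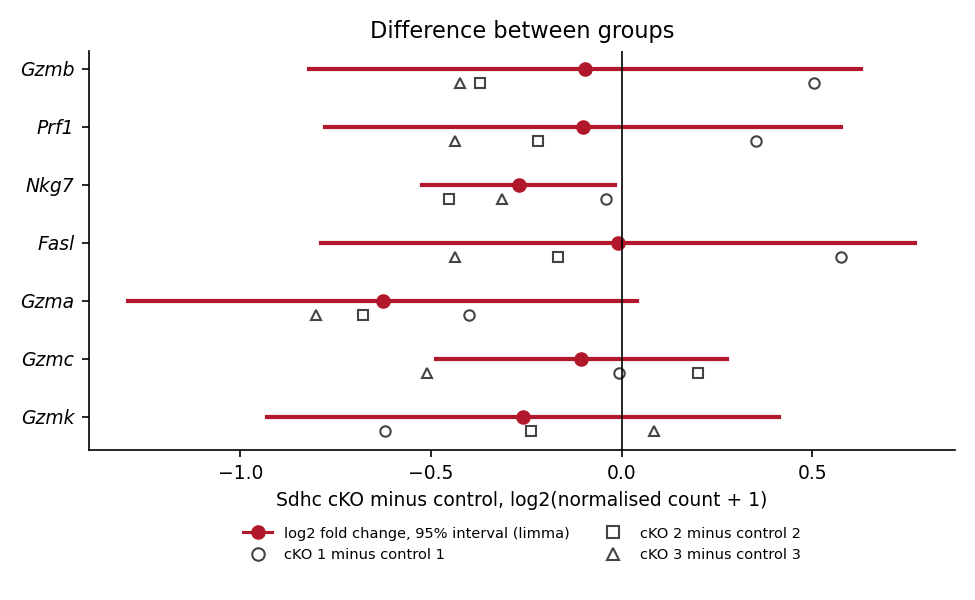
Difference between Sdhc cKO and control on the log2(normalised count + 1) scale (x axis) for each gene, as the limma estimate with its 95% interval (red) and as the 3 differences between same-numbered libraries (open markers). Gzma and Nkg7 have all 3 pair differences below 0, and Gzmb, Prf1 and Fasl have cKO 1 minus control 1 on the positive side.

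Per length of transcript, Gzmb dominated in both groups. Dividing normalised counts by the exon length of each gene in GENCODE M21, Gzmb reached 7848 ± 3674 per kb in cKO and 7928 ± 1614 per kb in control (SD, n = 3 each). That placed it at rank 117 in cKO and rank 119 in control among 17613 genes with a known length. Nkg7 followed with 2426 ± 369 per kb in cKO and 2904 ± 33.4 per kb in control, below every Gzmb value. The other 5 genes lay far below Nkg7. In cKO libraries they ran in the order Gzmc (193 per kb), Gzma (161), Fasl (150), Gzmk (116) and Prf1 (86.3), each overlapping its neighbour. In control libraries the order was Gzma (251 per kb), Gzmc (210), Gzmk (145), Fasl (139) and Prf1 (88.2). There, too, neighbours overlapped, apart from Fasl and Prf1, whose ranges of 118 to 166 and 70.6 to 102.5 per kb did not. Prf1 was thus the least abundant of the 7 per length in both groups, at rank 6697 in cKO and 6626 in control.

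Nearly all granzyme reads came from 1 gene. Gzmb took 96.7% (95% Wilson interval 96.5 to 97.0), 93.7% (93.1 to 94.2) and 94.8% (94.3 to 95.2) of the granzyme reads in cKO 1, 2 and 3. In controls 1, 2 and 3 it took 94.3% (93.9 to 94.6), 94.3% (93.8 to 94.7) and 94.7% (94.2 to 95.03). These intervals cover counting error only. cKO 1 was the library with the highest share and cKO 2 the one with the lowest. Of the remaining granzymes, Gzmm had 25.3 to 31.1 normalised counts in cKO libraries and 23.2 to 31.4 in controls, and Gzmd, Gzme, Gzmf and Gzmg had at most 3.3 in any library. How reads shared by granzymes of similar sequence were counted is not given in the sources used here, which leaves the low Gzmc counts less certain than those of Gzmb.

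Gzmb, Prf1 and Fasl varied less relative to each other than each varied by itself. Across the 6 libraries Gzmb varied 2.51-fold between the lowest and the highest value, Prf1 2.17-fold and Fasl 2.501-fold. The ratio of Gzmb to Prf1 was 50.5, 43.5 and 56.9 in cKO libraries against 45.5, 48.3 and 56.3 in controls, a range of 1.31-fold. The ratio of Prf1 to Fasl ranged 1.29-fold and that of Gzmb to Fasl 1.55-fold. Counting error alone amounts to 6.65% for Prf1, 5.95% for Fasl and 0.940% for Gzmb at the mean depth. Ratios of these 3 genes to the other members ranged more widely. That of Gzmb to Gzma ranged 2.47-fold, with 95.6, 61.2 and 50.3 in cKO libraries against 51.0, 49.4 and 38.7 in controls. The ratio of Gzmb to Gzmc ranged 2.79-fold. Ratios to Nkg7 ranged 1.97-fold for Gzmb, 1.89-fold for Prf1 and 2.13-fold for Fasl. Ratios to Gzmk ranged 2.30-fold, 1.97-fold and 2.30-fold in the same order. Each Nkg7 or Gzmk ratio thus also ranged less than the numerator gene alone, and this was not particular to ratios among the 3 genes. Of 21 such ratios between the 7 genes, the smallest 2-sided exact permutation p between the groups was 0.2 (1 after Benjamini-Hochberg adjustment), where 0.1 is the smallest possible.

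The spread between libraries of a group was large for 5 of the genes. The residual SD about the group means, on the log2 scale, was 0.55 for Fasl, 0.52 for Gzmb, 0.47 for Prf1, 0.46 for Gzma and 0.46 for Gzmk. Over the 9403 tested genes whose mean reached 100 normalised counts the median was 0.14, and these 5 genes lay at or above the 96.8th percentile of that spread. Gzmc (0.21) and Nkg7 (0.15) lay nearer the middle, at the 75.8th and 58.5th percentile. Gzmb rested on 7528 to 17018 reads per library.

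The genes whose profile over the 6 libraries came closest were found by the root mean square difference of centred log2 values, among 9746 candidate genes. Of the members themselves, Prf1 and Fasl differed by 0.13, Gzmb and Prf1 by 0.14 and Gzmb and Fasl by 0.25, against 0.40 to 0.59 between Gzma and each of these 3. Gzmc and Nkg7 were as near to each other, at 0.24, and Nkg7 differed from Prf1 by 0.29 and from Gzmb by 0.32, so the 3 genes were not sharply set apart from the others. The gene nearest to Gzmb was Entpd1, which encodes the ectonucleotidase CD39, at a difference of 0.09, followed by Nnt (0.10) and Eno3 (0.11). Entpd1 had 1318, 615 and 765 normalised counts in cKO libraries against 1012, 676 and 1019 in controls, so it too was highest in cKO 1 and lowest in cKO 2. Slc52a3, a riboflavin transporter gene, was nearest to Prf1 (0.07) and to Fasl (0.12). Entpd1 (0.09) and the cannabinoid receptor gene Cnr2 (0.10) came next for Prf1, and Ormdl3 (0.13) and Cyp4f13 (0.14) for Fasl. Nearest to Gzma were Fut4 (0.18), Ifitm1 (0.19) and Emilin2 (0.20), to Gzmk Hip1 (0.08), Ifitm2 (0.10) and Ier3 (0.10), to Gzmc Abt1 (0.06) and Snrpg (0.07), and to Nkg7 Cisd3 (0.05), Arhgef10 (0.06) and Larp1b (0.06). With 6 libraries and this many candidates, close profiles are a description only.

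**Figure D3:**
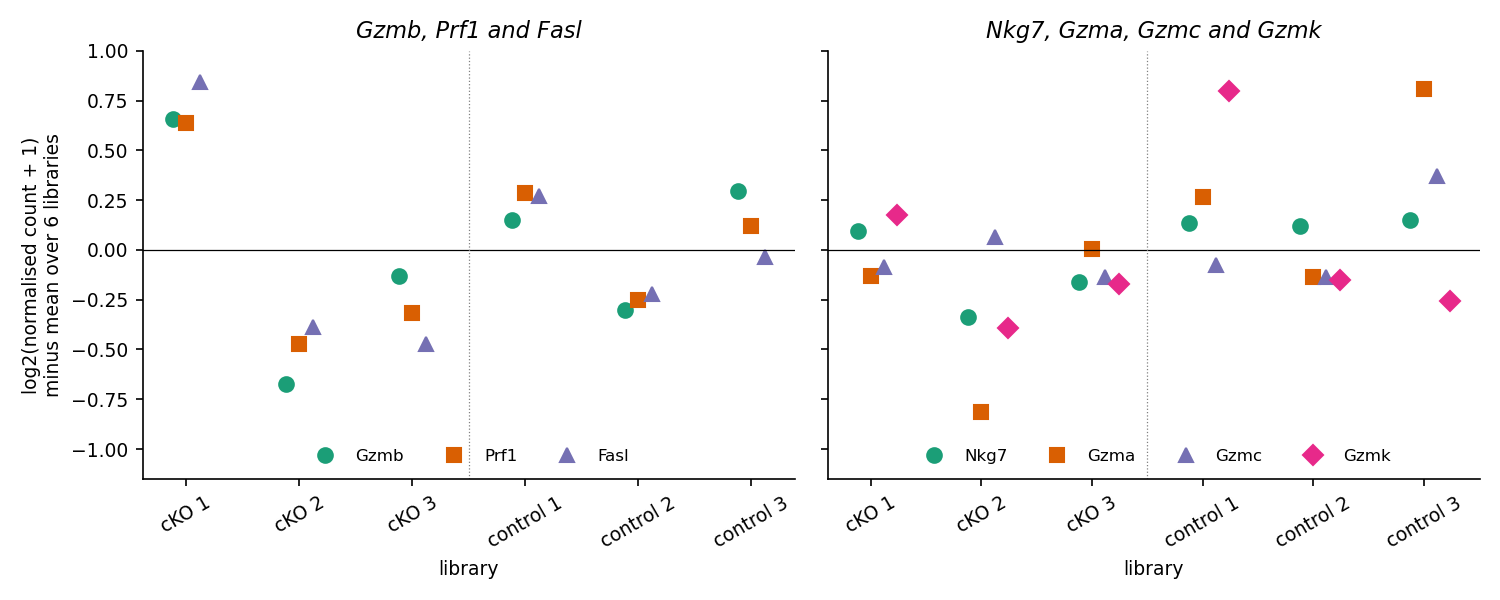
Level of each gene in each library as log2(normalised count + 1) minus its mean over the 6 libraries (y axis), cKO libraries left of the dotted line and controls right of it. Gzmb, Prf1 and Fasl lie close together in most libraries in the left panel, while Gzma, Gzmc, Gzmk and Nkg7 in the right panel follow other layouts, with Gzma lowest in cKO 2 and highest in control 3.

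Genes that load and release cytotoxic granules showed no called difference. Of 34 genes listed, 31 were tested and 0 passed in either direction. Negative log2 fold changes numbered 19, where 54.1% of all tested genes had one, and the median was -0.03. The most abundant were Coro1a, an actin regulator (log2 fold change -0.03, SE 0.09), Calr, a calcium-binding chaperone that also binds perforin (-0.03, SE 0.16), and Ctsd, a lysosomal protease (0.02, SE 0.13). Of the 31, 1 was without overlap, lower in cKO, where 5.64% of all tested genes were. It was Sytl3, a synaptotagmin-like partner of Rab27 proteins, with 385.5 ± 49.1 normalised counts in cKO and 488.5 ± 70.5 in control (SD, n = 3 each; log2 fold change -0.34, SE 0.14, limma adjusted p = 0.978). Genes mutated in human familial haemophagocytic disease, Unc13d (-0.03, SE 0.08), Stx11 (-0.37, SE 0.21) and Stxbp2 (-0.02, SE 0.07), overlapped between the groups. So did Srgn, the granule proteoglycan (-0.10, SE 0.11), Ctsc, which activates granzymes (-0.04, SE 0.15), and Rab27a (-0.09, SE 0.09).

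Inhibitors of granzymes and cathepsins had a lower median than all genes, without a called member. All 10 listed genes were tested and 0 passed. Of these, 9 had negative log2 fold changes, as did 54.1% of all tested genes, and the median was -0.16. Serpinb9, the inhibitor of granzyme B that protects the killer cell, had 775, 729 and 763 normalised counts in cKO libraries against 865, 805 and 782 in controls. It was the 1 gene of the 10 without overlap, lower in cKO, where 5.64% of all tested genes were. Its log2 fold change was -0.11 (SE 0.08, limma adjusted p = 0.978). The cystatin genes Cst7 (-0.06, SE 0.12) and Cst3 (0.06, SE 0.11), which restrain cathepsins, were the most abundant.

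On the death receptor side, 0 of 21 genes of the Fas and caspase pathway passed. Negative log2 fold changes numbered 17, where 54.1% of all tested genes had one, and the median was -0.07. Of the 21, 2 were without overlap, lower in cKO, where 5.64% of all tested genes were. 1 of them was Dffa, the caspase substrate that holds the apoptotic nuclease in check. It had 397.5 ± 15.7 normalised counts in cKO and 468 ± 40.5 in control (SD, n = 3 each; log2 fold change -0.23, SE 0.10, limma adjusted p = 0.978). Fas, the receptor of Fas ligand, had 792, 832 and 863 normalised counts in cKO libraries against 636, 751 and 807 in controls, with overlap and a positive log2 fold change of 0.19 (SE 0.11). Casp8 (-0.09, SE 0.10), Adam10 (-0.03, SE 0.08), a protease that sheds Fas ligand, and Apaf1 (-0.06, SE 0.07) were the most abundant of the list.

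Other death ligands and granule proteases were mixed. Of 11 genes listed, 6 were tested and 0 passed. Negative log2 fold changes numbered 3, where 54.1% of all tested genes had one, and the median was 0.01. Tnfsf10, the gene of the death ligand TRAIL, had 544.5 ± 39.1 normalised counts in cKO and 624 ± 50.5 in control (SD, n = 3 each; -0.20, SE 0.10, limma adjusted p = 0.978). It was the 1 gene of the 6 without overlap, lower in cKO, where 5.64% of all tested genes were. Ctsw, a cathepsin of cytotoxic cells, was highest in cKO 1 like Gzmb, with 3176, 1756 and 1810 normalised counts in cKO libraries against 2315, 1798 and 2023 in controls (0.09, SE 0.22). The cytokine genes Lta (-0.12, SE 0.25) and Tnf (0.05, SE 0.19) overlapped between the groups.

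Among transcription factors and receptors that promote the cytotoxic programme, 27 were tested and 0 passed. Negative log2 fold changes numbered 23, where 54.1% of all tested genes had one, and the median was -0.20. Without overlap and lower in cKO were 5 of 27, where 5.64% of all tested genes were. They were Tbx21, which encodes T-bet (-0.30, SE 0.09), Stat5a (-0.24, SE 0.08), Prdm1, which encodes Blimp-1 (-0.23, SE 0.10), Zeb2 (-0.64, SE 0.27) and Nfil3 (-0.16, SE 0.08), each with a limma adjusted p of 0.978. Zeb2 was scarce, at 43.6 ± 15.5 normalised counts in cKO and 65.4 ± 1.98 in control (SD, n = 3 each). Eomes, the T-box factor of cytotoxic cells, had 138, 231 and 247.5 normalised counts in cKO libraries against 106, 366 and 309 in controls. In each group Eomes was lowest in the library numbered 1, and its relation to Gzmb was not tested. The most abundant were the interleukin-2 receptor genes Il2ra (-0.12, SE 0.12) and Il2rb (0.09, SE 0.09) and Notch1 (0.05, SE 0.07).

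Of the factors that restrain the programme, 11 were tested and 0 passed. Negative log2 fold changes numbered 3, where 54.1% of all tested genes had one, and the median was 0.04. Bcl6, the repressor that defines follicular helper cells, had 173, 136 and 124 normalised counts in cKO libraries against 116, 108 and 81.4 in controls. It was the 1 gene of the 11 without overlap and higher in cKO (0.50, SE 0.20, limma adjusted p = 0.978), as were 4.51% of tested genes. Myb was the 1 gene without overlap and lower (-0.30, SE 0.12, limma adjusted p = 0.978), as were 5.64% of tested genes. Satb1 (-0.06, SE 0.08), Tcf7 (-0.03, SE 0.08) and Lef1 (0.04, SE 0.10) were the most abundant. These lists were chosen with earlier results of the same data known, and their counts describe them only.

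**Figure D4:**
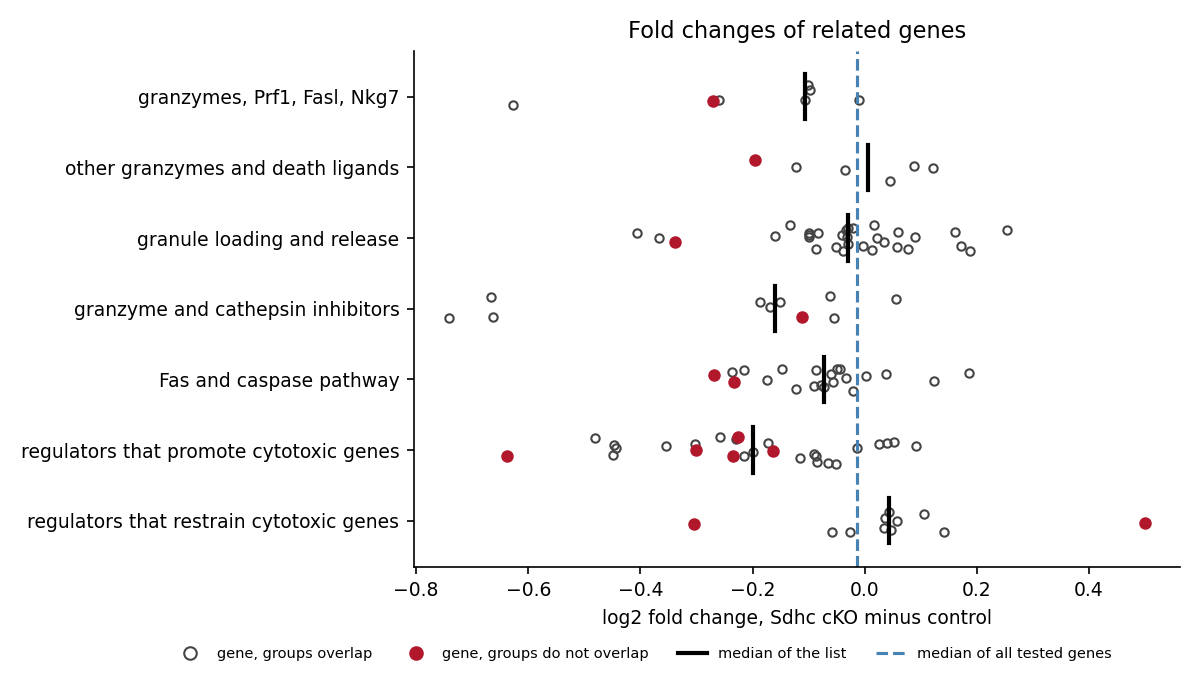
Log2 fold change of every tested gene (x axis, Sdhc cKO minus control) by list, with filled markers for genes whose groups do not overlap, a bar at the median of the list and a dashed line at the median of all tested genes (-0.01). The list of regulators that promote the programme has the lowest median, -0.20, and 0 genes of the 7 lists passed the test.

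Summed markers of some other cells that use these genes were lower in cKO within each same-numbered pair, while single markers could go the other way. Of these sums, only those of gamma delta T cell genes did not overlap between the groups, a layout that 5.64% of single tested genes had. The 13 NK cell genes summed to 567, 212 and 262 normalised counts in cKO libraries against 741, 292 and 431 in controls, lower in cKO in each same-numbered pair. Klrk1 and Klrc1 had the highest values of the list in every library, Ncr1 had 1.81 to 8.61 in cKO libraries and 3.71 to 22.0 in controls, and Klra4 was at 0 in 5 of the 6 libraries. Cd8a and Cd8b1 summed to 235 to 547 in cKO libraries and 278 to 367.5 in controls, highest in cKO 2, where Gzmb and Gzma were lowest. The gamma delta T cell genes, 7 of 8 found, summed to 178 to 246 in cKO libraries and 277 to 339 in controls. Most came from the Tcrg-C genes, and Trdc was not found. Means of Sox13, Trdv4 and Blk were also lower in cKO, while Cd163l1 went the other way (5.81 in cKO, 3.41 in control). Trdv4 and Blk were near 0, with at most 2.2 and 2.94 normalised counts in any library. The 4 NKT cell genes summed to 2799 to 4204 in cKO libraries and 3347 to 4591 in controls, mostly from Cxcr6 and Slamf6, which other T cells also express. Mast cell and basophil genes, 4 of 7 found, summed to 39.2 to 86.1 in cKO libraries and 45.4 to 111 in controls, mostly from Kit. The rest were scarce and higher in cKO on average: Cpa3 (4.22 against 3.09), Mcpt8 (2.15 against 1.47) and Cma1 (1.32 against 1.29). B cell genes, 4 of 5 found, summed to 39.8 to 76.3 in cKO and 46.3 to 64.7 in control, and myeloid genes, 4 of 7 found, to 36.1 to 82.4 in cKO and 38.2 to 66.7 in control. The gamma delta and the mast cell sums, like the NK cell sum, Gzma and Nkg7, were lower in cKO in each same-numbered pair, a layout that 21.8% of single tested genes had. The part of these cells in the values of Gzmb, Gzma and Nkg7 was not tested.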

How the data were processed

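Gene expression was taken from 6 libraries, 3 labelled Sdhc cKO and 3 controls, grouped by their titles. The values deposited by the authors are a signal, reads divided by a size factor for each library: 100% of a library's values were whole multiples of its smallest non-zero value, to within 0.01. STAR, HTSeq, DESeq2 and the build mm10 are named in the submitters' processing notes, with no versions or settings. The recovered reads were used for alternatives and shares.

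Groups were compared with limma-trend, genotype being the only term, on log2 values with a pseudocount of 1 (limma version 3.58.1 under R version 4.3.3). A gene entered if 3 or more libraries exceeded 10 normalised counts, and p-values were adjusted by Benjamini-Hochberg at 0.05. This scale understates changes of low genes; each SE is moderated by limma. The procedure was tested on simulated data. Alternatives were other scalings, filters and pseudocounts, DESeq2 1.42.0 without independent filtering, edgeR 4.0.16, limma-voom, array weights, a Y-linked covariate, the replicate number as a block and each library left out. Leaving out cKO 1 and control 1 together was chosen after seeing the data. Replicate numbers were used as pairs for the block and for the differences between same-numbered libraries, and not in the main fit. Deviations of same-numbered libraries had correlations over genes of 0.579 (number 1), 0.458 (number 2) and 0.188 (number 3). However, cKO 3 correlated more with control 2 (0.272). These correlations come from the same data, and the libraries numbered 1 also shared the near absence of Y-linked reads. The labels do not give the pairing.

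The members, lists and tests were chosen with earlier results of these data known. Beside the members, list genes were named if their groups did not overlap or if they were among the 3 most abundant, and for each member the 3 genes nearest in profile. Some genes this rule selects are not reported here. Fas, Srgn, Ctsc, Rab27a, Unc13d, Stx11, Stxbp2 and Eomes were named for their roles after their values were seen, and so was Ctsw for its layout. Positions and exon lengths come from GENCODE M21 on GRCm38, the assembly of mm10, where 17613 of 18929 symbols were found, and promoter sequences from RefSeq, where all 7 members were found.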

Additional observations from a re-analysis of the deposited data

How the results depend on the processing

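With 3 libraries a group, 0 of 7 genes passed under any alternative run, and signs of small changes were unstable. Gzma and Nkg7 kept a negative log2 fold change under every alternative. Fasl turned positive with upper-quartile scaling (0.0249), DESeq2 (0.12), edgeR (0.13) and the Y-linked covariate (0.38), Gzmb with edgeR (0.00594) and the covariate (0.24), and Prf1 with the covariate (0.23). Array weights moved the other way, to -0.25 for Fasl, -0.32 for Gzmb, -0.29 for Prf1 and -0.22 for Gzmc, and Gzmk came to -0.12 with them and -0.03 with the covariate. With the covariate the adjusted p was 0.0906 for Fasl, 0.334 for Gzmb, 0.236 for Prf1, 0.168 for Nkg7 and 0.254 for Gzma.

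Leaving out each library in turn, the log2 fold change ran from -0.45 to 0.21 for Gzmb, -0.45 to 0.11 for Prf1, -0.43 to 0.22 for Fasl, -0.45 to 0.07 for Gzmk, -0.20 to 0.05 for Gzmc, -0.85 to -0.38 for Gzma and -0.38 to -0.17 for Nkg7. Among the positive values, Gzmb had 0.21 without cKO 2 and 0.03 without control 3, and Gzmc 0.0543 without control 3. Gzmk had 0.0746 without control 1. Prf1 had 0.11 without cKO 2, 0.03 without cKO 3 and 0.01 without control 1, and Fasl 0.18, 0.22 and 0.12. The cause was not tested.

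Over all genes, DESeq2 called 2 (Ifng, Dleu2), array weights 1 (Ifng), the replicate block 1 (Ifng) and the fit without cKO 1 and control 1 called 1 (Fosb). Leaving out each library in turn called 0 to 1, the 1 being Xist without cKO 1. The Y-linked covariate called 826 of 12699 tested genes (6.5%), 209 of them higher in cKO. Beside that share, the lists held 3 of 31 tested granule genes, higher (Lyst, Sytl1, Snap23), and 2 of 6 other proteases and ligands (Ctsw higher, Lta lower). They also held 2 of 10 inhibitors, lower (Serpina3f, Serpina3g), 1 of 21 Fas pathway genes, lower (Ripk1), and 4 of 27 promoting regulators, lower (Tbx21, Stat5a, Irf4, Cbfb). Of the 11 restraining factors, 0 were called. Among the marker and sex-linked lists the calls were Cd3d of the 10 CD4 T cell genes, higher, and Xist, lower. The replicate block changed no call among the 7 genes or the lists.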
